A study of Mus musculus with 11 samples.

Results

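The genes Nppa, Nppb, Irx4, Hopx, Fhl2 and Smpx were followed in pooled mouse hearts at embryonic day 9.5. They were chosen as genes of the working chamber myocardium, with earlier results of these data known. Each probe set of the array whose single annotated symbol was one of these names was taken. All 6 genes were measured, with 2 probe sets for Hopx and 1 for each of the others, so 7 probe sets of 45037 tested and 6 genes of 18193 with a symbol were followed. The CKO-labelled hearts were Gata4 flox/flox with Nkx2-5 cre/+ (n = 5 arrays). The double heterozygous hearts were Gata4 flox/+ with Nkx2-5 cre/+ (n = 3), and the control hearts were Gata4 flox/+ with Nkx2-5 +/+ (n = 3). Every heart, control hearts included, thus carried at least 1 floxed Gata4 allele. The Cre allele sits at Nkx2-5 and removes floxed Gata4 where Nkx2-5 is active, and the series description counts it as loss of 1 Nkx2-5 copy as well. CKO-labelled hearts therefore differ from control hearts in both genes, and from double heterozygous hearts in the second floxed Gata4 allele. Hearts were pooled, and nothing in the labels states whether the replicates of a genotype were independent pools. The p-values below therefore reflect the scatter of these arrays, part or all of which may be technical.

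The early heart is a tube of slowly conducting primary myocardium, and its chambers form where the outer curvature of the tube balloons out and switches on a chamber programme. Nppa and Nppb, neighbours on chromosome 4, encode atrial and brain natriuretic peptide, secreted hormones that are classic reporters of chamber myocardium. Irx4 encodes an Iroquois homeodomain factor of the ventricle that represses atrial genes there. Hopx encodes an atypical homeodomain protein that does not bind DNA itself and restrains serum response factor, SRF, in cardiac muscle. Fhl2 encodes a LIM domain protein of heart muscle that binds sarcomere proteins, signalling proteins and SRF. Smpx, also called chisel, encodes a small muscle protein whose transcript marks the forming chambers. GATA4 acts on many cardiac promoters together with NKX2-5, TBX5, MEF2 and SRF, and Nppa and Nppb are textbook examples of such promoters.

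Intensities below are normalised log2 values, log2(deposited intensity + 16) after quantile normalisation, and differences are on that scale. A probe set is called when its p-value, adjusted by Benjamini-Hochberg over all 45037 probe sets in limma's moderated test, is under 0.05. Mean deposited intensity was 166.4 to 175.6 on 10 arrays and 117.2 on CKO-labelled replicate 3. On CKO-labelled replicate 2 the 3' beta-actin control probe set exceeded the 5' one by 1.001 (log2), and by 0.29 to 0.45 elsewhere. The brighter Gata4 probe set averaged 9.43 ± 0.11 on CKO-labelled arrays (SD, n = 5), 9.31 ± 0.097 on double heterozygous arrays (n = 3) and 8.98 ± 0.19 on control arrays (n = 3). The dimmer one averaged 8.12 ± 0.97 on CKO-labelled arrays, 8.44 ± 0.19 on double heterozygous arrays and 8.03 ± 0.10 on control arrays. Its CKO-labelled arrays spread widely, from 6.42 to 8.81, on both sides of the control arrays at 7.98 to 8.15. Mean Gata4 signal was thus not below control where 2 alleles were floxed, and the sources used here do not say whether its probe sets lie in the deleted part, so it does not check the labels. Heart muscle markers were bright on every array: the summed intensity of 10 cardiomyocyte markers was 62083 to 67027 on CKO-labelled arrays, 63557 to 66227 on double heterozygous arrays and 63783 to 64628 on control arrays. In bulk hearts, fewer cells of a type and less RNA per cell cannot be told apart.

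The 250 bases before the annotated starts of 5 members are printed, because 4 of them are the genes whose CKO-labelled and control arrays separated and Nppa is the best known GATA4-responsive promoter among the 6. The sequences are RefSeq's, build GRCm38.p6, on the gene's own strand. Capitals mark matches to 5 motifs, searched on both strands. The GATA site was taken as AGATAA or AGATAG, or either with T as its first base. The site bound by T-box factors such as TBX5 was TCACACC. The Nkx2-5 element was TNAAGTG, where N is any base. The MEF2 site was taken loosely, as CTA and TAG with any 4 bases between them and not only A or T. The CArG box bound by SRF was searched by its usual definition.
Fhl2, first of 2 starts, chr1:43196762-43197011, minus strand: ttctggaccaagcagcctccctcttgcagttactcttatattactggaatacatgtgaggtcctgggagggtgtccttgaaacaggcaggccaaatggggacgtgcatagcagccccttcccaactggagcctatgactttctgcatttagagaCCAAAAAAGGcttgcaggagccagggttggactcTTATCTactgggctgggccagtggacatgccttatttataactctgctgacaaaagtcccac
Hopx, first of 2 starts, chr5:77115124-77115373, minus strand: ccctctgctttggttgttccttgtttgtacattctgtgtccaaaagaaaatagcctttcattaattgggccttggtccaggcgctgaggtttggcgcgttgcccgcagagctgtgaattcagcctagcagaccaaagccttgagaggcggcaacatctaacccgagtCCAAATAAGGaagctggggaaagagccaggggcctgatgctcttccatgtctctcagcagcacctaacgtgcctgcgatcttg
Irx4, chr13:73260247-73260496, plus strand: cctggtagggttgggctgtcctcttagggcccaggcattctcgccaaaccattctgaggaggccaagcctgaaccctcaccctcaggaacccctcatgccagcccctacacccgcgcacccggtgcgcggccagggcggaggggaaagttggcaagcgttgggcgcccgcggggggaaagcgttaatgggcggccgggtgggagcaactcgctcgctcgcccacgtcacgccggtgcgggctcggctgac
Smpx, chrX:157698723-157698972, plus strand: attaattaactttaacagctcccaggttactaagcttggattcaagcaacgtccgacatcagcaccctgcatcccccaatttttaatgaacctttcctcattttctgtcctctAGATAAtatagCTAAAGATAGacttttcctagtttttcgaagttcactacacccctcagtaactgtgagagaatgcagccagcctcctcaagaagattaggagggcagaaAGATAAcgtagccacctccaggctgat
Nppa, chr4:148000472-148000721, plus strand: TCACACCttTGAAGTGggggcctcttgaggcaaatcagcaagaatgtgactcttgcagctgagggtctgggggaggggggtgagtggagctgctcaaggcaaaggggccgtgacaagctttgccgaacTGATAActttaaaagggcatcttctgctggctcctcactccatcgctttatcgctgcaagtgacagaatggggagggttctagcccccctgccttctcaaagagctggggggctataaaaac
The upstream start of Fhl2 had a CArG box at base -96 and a GATA site at base -62 relative to the start, and its other start had a CArG box. Hopx had a CArG box at the printed start and 0 matches at its other start. Irx4 had 0 matches in a window of 68.8% G and C, against a median of 52.4% over all promoters. Smpx had 3 GATA sites, 1 of them inside its match to the loose MEF2 pattern, whose middle bases are AAGA. Nppa had a T-box site, an Nkx2-5 element and a GATA site, and Nppb had 2 GATA sites. Of 32851 promoter windows of the same length, 26.5% held a GATA site, 10.1% an Nkx2-5 element and 3.33% a T-box site. A match to the loose MEF2 pattern was held by 3.20%, and a CArG box by 1.47%. A match describes letters only, and a window without one says nothing of the factor.

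**Figure D1:**
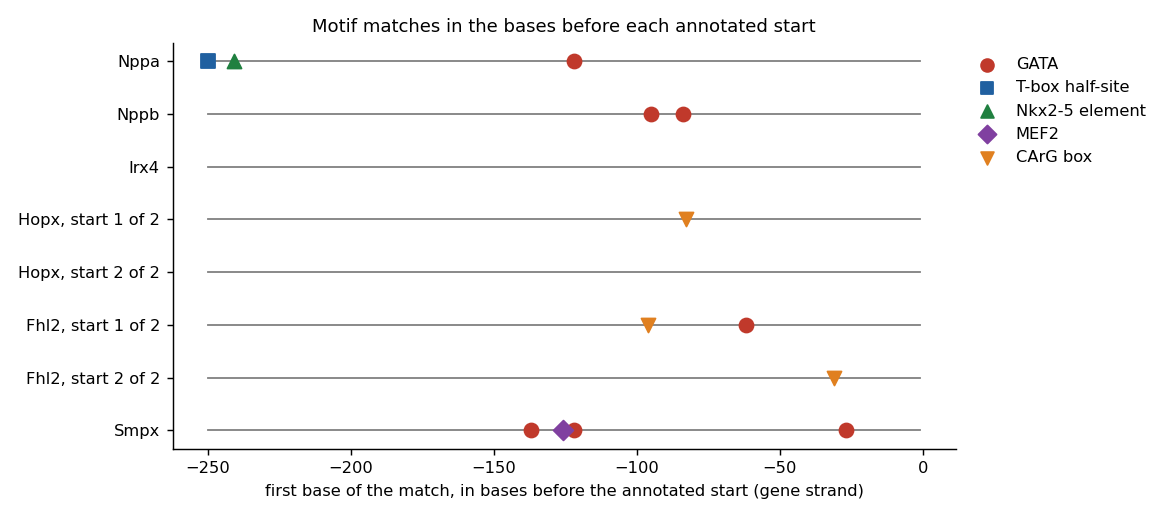
Motif matches in the 250 bases before each annotated start of the 6 genes, 1 line per start, with the x axis giving the first base of each match in bases before the start, on the gene strand. CArG boxes lie at 3 starts of Fhl2 and Hopx, GATA sites at starts of Nppa, Nppb, Fhl2 and Smpx, and none of the 5 motifs at Irx4.

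The comparison of CKO-labelled with control hearts asks what goes with 2 floxed Gata4 alleles and Cre. A group of 3 genes, the transcription regulators Irx4 and Hopx and the LIM protein Fhl2, were lower in CKO-labelled hearts, to between 0.58 and 0.74 of the control level. The small muscle protein gene Smpx lay lower by less and missed the threshold. The natriuretic peptide genes Nppa and Nppb did not differ detectably. Of the 7 probe sets, 4 were called, all lower, where 0.566% of all probe sets were called lower, 0.837% higher and 1.4% in either direction. On 5 of the 7, all CKO-labelled arrays lay below all control arrays, where 5.81% of all probe sets did so, 3.93% lay apart the other way and 9.73% in either direction. The median difference of the 7 was -0.43, against -0.01 over all probe sets tested. The members were chosen with earlier results of these data known. Such shares and medians, here and below, are therefore description and not independent evidence about chamber genes.

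Fhl2 showed the largest difference of the 6 genes. It read 8.73, 8.46, 8.82, 8.44 and 8.37 on CKO-labelled arrays, 9.18, 9.23 and 8.95 on double heterozygous arrays, and 9.35, 9.27 and 9.45 on control arrays. The highest CKO-labelled array lay below the lowest double heterozygous array, and that group in turn lay below all control arrays. The log2 difference from control was -0.79 (SE 0.11, adjusted p = 0.00218, limma), or 0.58 of the control level. CKO-labelled replicates 1 and 3 were the highest of their group.

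Irx4 read 7.997, 8.08, 7.88, 7.56 and 7.87 on CKO-labelled arrays, 8.39, 8.39 and 8.27 on double heterozygous arrays, and 8.40, 8.44 and 8.67 on control arrays. All CKO-labelled arrays were below all others, and double heterozygous arrays came close to the lower control arrays without overlapping them. The difference from control was -0.62 (SE 0.12, adjusted p = 0.0165, limma), or 0.65 of the control level. CKO-labelled replicate 4 was the lowest of its group. The Irx4 call was lost in 7 of 22 alternatives. Among these were leaving out control replicate 1 (-0.67), 2 (-0.66) or 3 (-0.54) and the deposited scale (-0.76). It was also lost without the intensity trend (adjusted p = 0.0527, limma) and with only the groups compared in the fit (adjusted p = 0.0625).

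Hopx was measured by 2 probe sets, and both fell. The brighter probe set read 10.24, 10.25, 10.34, 10.06 and 10.05 on CKO-labelled arrays, 10.34, 10.59 and 10.25 on double heterozygous arrays, and 10.68, 10.73 and 10.78 on control arrays. CKO-labelled and double heterozygous arrays overlapped each other, and both lay below all control arrays. The difference of CKO-labelled from control arrays was -0.55 (SE 0.089, adjusted p = 0.00585, limma), or 0.69 of the control level. The dimmer probe set read 9.02 to 9.18 (median 9.11) on CKO-labelled arrays, 9.13 to 9.33 (median 9.29) on double heterozygous arrays and 9.34 to 9.66 (median 9.61) on control arrays. Its difference was -0.43 (SE 0.090, adjusted p = 0.0277, limma). The dimmer probe set lost its call in 9 of 21 alternatives and the brighter in 2 of 22, and among single arrays control replicate 3 ended both calls (-0.52 for the brighter, -0.37 for the dimmer). The dimmer also lost its call without control replicate 1 (-0.39), double heterozygous replicate 1 (-0.43) or CKO-labelled replicate 5 (-0.43).

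Smpx read 11.09, 11.07, 10.85, 10.91 and 10.89 on CKO-labelled arrays, 11.03, 11.17 and 10.82 on double heterozygous arrays, and 11.21, 11.36 and 11.33 on control arrays. All CKO-labelled and all double heterozygous arrays lay below the control arrays, and those 2 groups overlapped each other. The difference of CKO-labelled from control arrays was -0.34 (SE 0.084, 95% interval -0.52 to -0.16), with adjusted p = 0.0639 in limma's test. Without CKO-labelled replicate 1 or 2 it passed, at -0.37 in each case.

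Nppa read 11.90, 12.09, 11.90, 12.16 and 11.98 on CKO-labelled arrays, 11.60, 11.90 and 11.52 on double heterozygous arrays, and 11.83, 11.84 and 11.97 on control arrays. CKO-labelled arrays overlapped control arrays and reached above them. The difference from control was 0.13 (95% interval -0.06 to 0.31, adjusted p = 0.586, limma), an interval that leaves out the falls seen for Fhl2, Irx4 and Hopx. Nppb read 10.42, 10.19, 10.52, 10.70 and 10.12 on CKO-labelled arrays, 10.20, 9.93 and 10.13 on double heterozygous arrays, and 10.12, 10.35 and 10.38 on control arrays. CKO-labelled arrays of Nppb spread around the control arrays on both sides, and the difference was 0.11 (95% interval -0.14 to 0.36, adjusted p = 0.767, limma). The Nppb difference was 0.03 without control replicate 1, 0.03 without CKO-labelled replicate 4 and 0.18 without CKO-labelled replicate 5. With the deposited scale or median centring both differences turned slightly negative, at -0.01 and -0.01 for Nppa and -0.05 and -0.06 for Nppb.

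**Figure D2:**
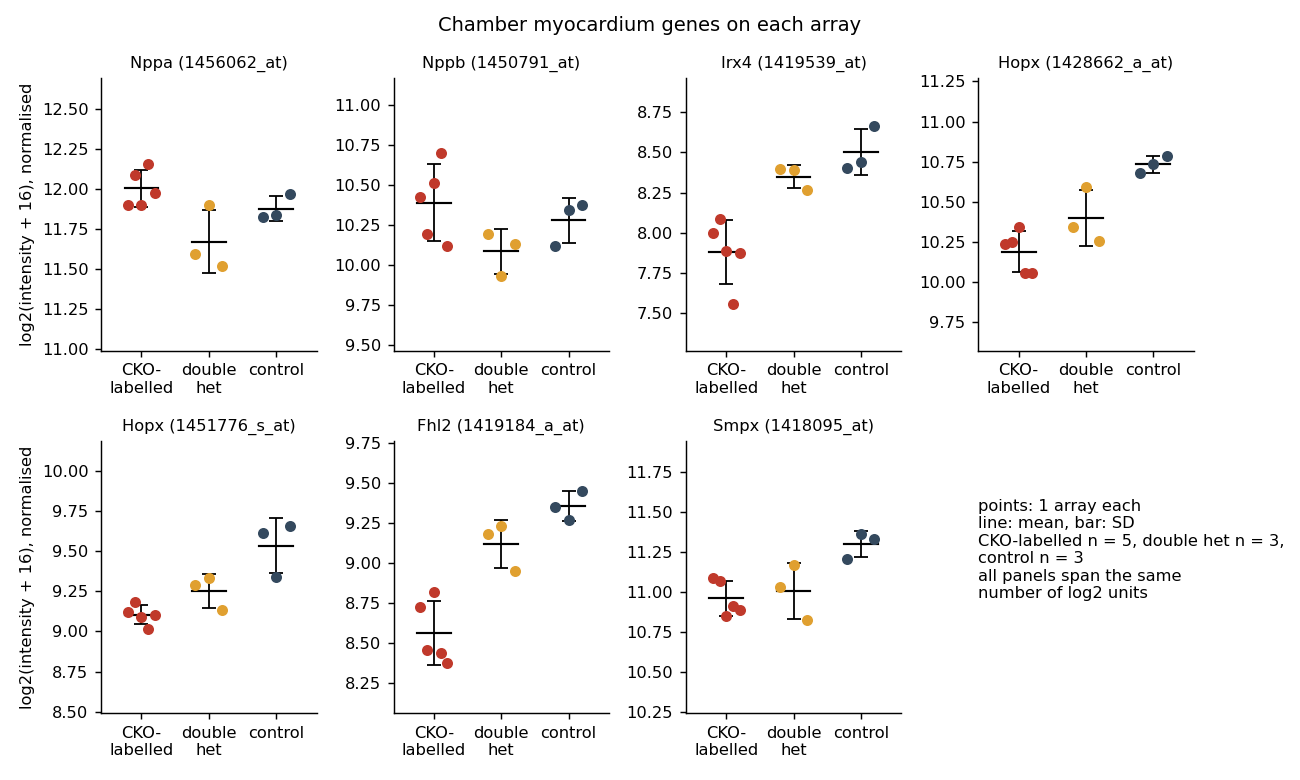
Normalised log2(intensity + 16) of the 7 probe sets on each array, 1 point per array, with the group mean (line) and SD (bar). CKO-labelled arrays lie below all control arrays for Irx4, both Hopx probe sets, Fhl2 and Smpx, and overlap them for Nppa and Nppb.

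Members measured on the same array share its RNA, labelling and scaling, so each member was also set against Nppa within the array, relative to the control mean of that gap. For Fhl2 the gap was -1.20 to -0.56 (median -1.08) on CKO-labelled arrays, -0.15 to 0.11 on double heterozygous arrays and -0.05 to 0.05 on control arrays. For Irx4 it was -1.23 to -0.53 on CKO-labelled arrays, -0.14 to 0.17 on double heterozygous arrays and -0.05 to 0.08 on control arrays. For Hopx it was -0.96 to -0.41 on CKO-labelled arrays, -0.16 to -0.11 on double heterozygous arrays and -0.04 to 0.04 on control arrays. For Smpx it was -0.67 to -0.23 on CKO-labelled arrays, -0.15 to 0.01 on double heterozygous arrays and -0.06 to 0.10 on control arrays. In CKO-labelled hearts all 4 genes thus stood lower relative to Nppa on each array than on any array of either other group. How many other probe sets would do so was not counted, so this separation is not particular to the members. Nppa itself had a mean 0.33 higher in CKO-labelled than double heterozygous hearts, which lowers every gap relative to that group. Set directly against double heterozygous hearts, Smpx differed by -0.05 and the brighter Hopx probe set by -0.21, and the arrays of both overlapped. The gap of Nppb, -0.30 to 0.21 on CKO-labelled arrays, -0.37 to 0.20 on double heterozygous arrays and -0.11 to 0.10 on control arrays, overlapped between all groups. These gaps were described after the differences had been seen, and no test was run on them.

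The comparison of CKO-labelled with double heterozygous hearts holds Cre constant. Of the 7 probe sets, 0 were called in limma's test and 5 had an unadjusted p under 0.05. Over all probe sets 0.0622% were called lower, 0.286% higher and 0.349% in either direction, and 5399 of 45037 had an unadjusted p under 0.05. Fhl2 missed the threshold by little (-0.56, SE 0.11, 95% interval -0.80 to -0.32, adjusted p = 0.0521, limma). It was called without CKO-labelled replicate 1 (-0.60), without CKO-labelled replicate 3 (-0.62) and without replicates 2 and 3 together (-0.61). Irx4 differed by -0.47 (95% interval -0.72 to -0.22, adjusted p = 0.119), with all CKO-labelled arrays below all double heterozygous arrays. That separation held for 2 of the 7 probe sets, Fhl2 and Irx4, and 4.45% of all probe sets lay apart in that direction, 3.07% in the other and 7.52% in either. Hopx differed by -0.21 on its brighter probe set (95% interval -0.40 to -0.02, adjusted p = 0.365), and by -0.11 without double heterozygous replicate 2. Smpx differed by -0.05 (95% interval -0.23 to 0.13, adjusted p = 0.866), with a sign that turned without double heterozygous replicate 2 (0.03) and a value of -0.14 without replicate 3 of that group. Nppa and Nppb had higher means in CKO-labelled hearts, by 0.33 (95% interval 0.15 to 0.51, adjusted p = 0.127) and 0.30 (95% interval 0.05 to 0.56, adjusted p = 0.321). Double heterozygous replicate 2 read as high as the lowest CKO-labelled arrays for Nppa, so the groups overlapped.

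Double heterozygous hearts differ from control hearts by the Cre allele at Nkx2-5, which goes with loss of 1 Nkx2-5 copy and with removal of their 1 floxed Gata4 allele, and these cannot be told apart. All 7 probe sets had lower means in double heterozygous hearts, and 0 were called in limma's test, as were 0% of all probe sets. At an unadjusted p under 0.05 there were 4 of the 7, against 3.19% of all probe sets. Double heterozygous arrays lay below all control arrays on 5 of the 7, those of Irx4, Hopx (both probe sets), Fhl2 and Smpx, where 5.66% of all probe sets did so, 4.69% lay apart the other way and 10.3% in either direction. Some margins were thin, with 9.333 against 9.338 for the dimmer Hopx probe set and 8.394 against 8.403 for Irx4. In deposited intensity the dimmer Hopx probe set overlapped, at 677.69 on double heterozygous replicate 2 and 654.48 on control replicate 2. The largest differences were those of Hopx, -0.34 (95% interval -0.55 to -0.12) and -0.28 on its other probe set, and of Smpx, -0.29 (95% interval -0.49 to -0.09). Fhl2 followed at -0.24, Nppa at -0.20, Nppb at -0.20 and Irx4 at -0.15, and adjusted p = 1 for each of the 7 probe sets. Single arrays moved these smaller values: Irx4 was at -0.07 without control replicate 3, Fhl2 at -0.15 without double heterozygous replicate 3, and Nppb at -0.12 without double heterozygous replicate 2. Nppa was at -0.32 without double heterozygous replicate 2 and at -0.13 without replicate 3 of that group. The median of the 7 was -0.24. Nkx2-5 itself averaged 9.34 ± 0.34 on CKO-labelled arrays, 9.48 ± 0.097 on double heterozygous arrays and 9.87 ± 0.055 on control arrays, and both groups with Cre lay below control. Since this comparison and that of CKO-labelled with control hearts share the 3 control arrays, their values are given side by side and not set against each other.

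Across the 3 genotypes, the moderated F-test called 3 of the 7 probe sets, where 0.961% of all probe sets were called. They were Fhl2 (adjusted p = 0.00429, limma), the brighter Hopx probe set (adjusted p = 0.0172) and Irx4 (adjusted p = 0.0265). The other Hopx probe set reached adjusted p = 0.0674, Smpx 0.127, Nppa 0.162 and Nppb 0.473. The orders of the group means differed between members. Fhl2 and Irx4 had CKO-labelled arrays lowest with the double heterozygous mean nearer to control, Hopx and Smpx had it nearer to CKO-labelled arrays, and Nppa and Nppb had the double heterozygous mean lowest.

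**Figure D3:**
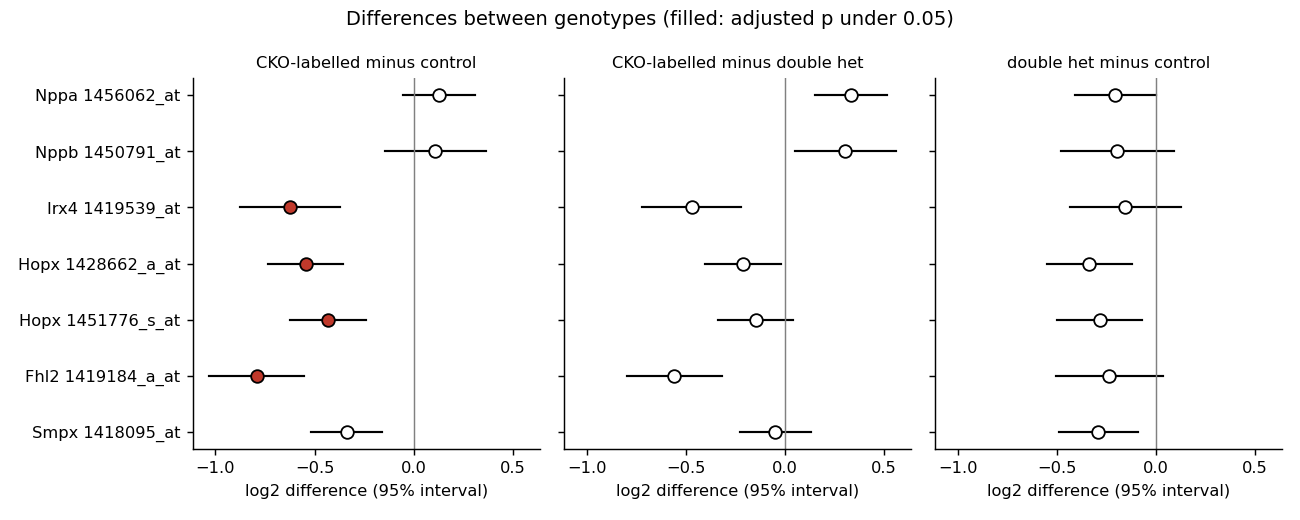
Log2 differences between genotypes with 95% intervals for the 7 probe sets, 1 panel per comparison. The 4 filled points, all in the CKO-labelled minus control panel, mark Irx4, Hopx and Fhl2 probe sets that were called, at -0.43 to -0.79.

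Related genes from lists of the same biology did not move as a block. Of 16 other chamber genes 0 were called in limma's test in any comparison, and their median difference between CKO-labelled and control hearts was -0.03, with 7 higher and 9 lower means. Among them the smallest p-values were those of Irx5, lower by 0.44 in double heterozygous hearts (log2 difference -0.44, adjusted p = 1), and Hey2, a ventricular repressor, at 0.35 in CKO-labelled against double heterozygous hearts (adjusted p = 0.214). The ventricular light chain gene Myl2 was at -0.05 (95% interval -0.14 to 0.05) between CKO-labelled and control hearts. Gja5, the connexin of fast-conducting myocardium, was dim, with 0.57 (95% interval 0.06 to 1.08, adjusted p = 0.314), and Bmp10, a trabecular growth factor, was at -0.34 (SE 0.31, adjusted p = 0.706). Myl2, Gja5 and Bmp10 were picked for naming after their values were seen. Of 8 genes of non-chamber myocardium 0 were called. Of these, Tgfb2 was at 0.41 between CKO-labelled and control hearts (adjusted p = 0.0746) and Bmp4 at 0.50 between double heterozygous and control hearts (adjusted p = 1).

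The Iroquois relatives of Irx4 included a gene that went the other way. Irx2 averaged 8.42 ± 0.15 on CKO-labelled arrays (SD, n = 5), 7.92 ± 0.095 on double heterozygous arrays (n = 3) and 7.57 ± 0.054 on control arrays (n = 3), with no overlap between any of the groups. Its log2 difference between CKO-labelled and control hearts was 0.85 (SE 0.10, adjusted p = 0.000570, limma), or 1.80-fold. On the deposited scale it was 0.70 and not called. Irx1 averaged 7.03 ± 0.18 on CKO-labelled arrays, 6.61 ± 0.18 on double heterozygous arrays and 6.49 ± 0.034 on control arrays, and its difference of 0.54 missed the threshold (adjusted p = 0.0551). Irx3, Irx5 and Irx6 were at -0.13, -0.19 and -0.11. Thus 1 of 5 relatives was called higher and 0 lower, with a median of -0.11. Of the 4 other Fhl genes, Fhl2 relatives with the same LIM domain layout, 0 were called in any comparison, with Fhl1 at -0.14 (adjusted p = 0.380) and Fhl3 at -0.22 (adjusted p = 0.641) between CKO-labelled and control hearts.

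In the natriuretic peptide system, 1 of 8 genes besides Nppa and Nppb was called between CKO-labelled and control hearts. Prkg1, the cyclic GMP-dependent kinase downstream of the peptide receptors, averaged 9.57 ± 0.18 on CKO-labelled arrays, 9.07 ± 0.14 on double heterozygous arrays and 8.90 ± 0.084 on control arrays. The difference was 0.67 (SE 0.11, adjusted p = 0.00457, limma), and it was not called on the deposited scale (0.52) or with median centring (0.52). The median of the 8 genes was -0.04. The guanylyl cyclase receptor gene Npr1 was at 0.37 (adjusted p = 0.310) and the clearance receptor gene Npr3 at 0.06 (adjusted p = 0.882), both named after their values were seen.

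Of 13 activators and repressors described for chamber promoters, 3 were called higher in CKO-labelled than control hearts and 0 lower, with a median of 0.07. They were the GATA factor genes Gata4 (0.45, adjusted p = 0.0321, limma), Gata5 (0.43, adjusted p = 0.0464) and Gata6 (0.41, adjusted p = 0.0142). Gata4 lost its call in 12 of 22 alternatives, Gata5 in 15 and Gata6 in 7. Each of the 3 lost it when any 1 control array was left out, with values of 0.34 to 0.51 for Gata4, 0.41 to 0.44 for Gata5 and 0.38 to 0.45 for Gata6. With its probe sets averaged, Gata4 was at 0.27 (adjusted p = 0.654, limma) and Gata5 at 0.27 (adjusted p = 0.188). None of the 3 was called on the deposited scale or after median centring, where they were at 0.29 to 0.30 for Gata4, 0.28 to 0.29 for Gata5 and 0.26 for Gata6. Nkx2-5 was at -0.53 (95% interval -0.84 to -0.22, adjusted p = 0.0990) and was called without CKO-labelled replicate 2 (-0.59), replicate 3 (-0.61) or both (-0.72). The 2 comparisons that involve double heterozygous hearts had 0 of the 13 called.

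**Figure D4:**
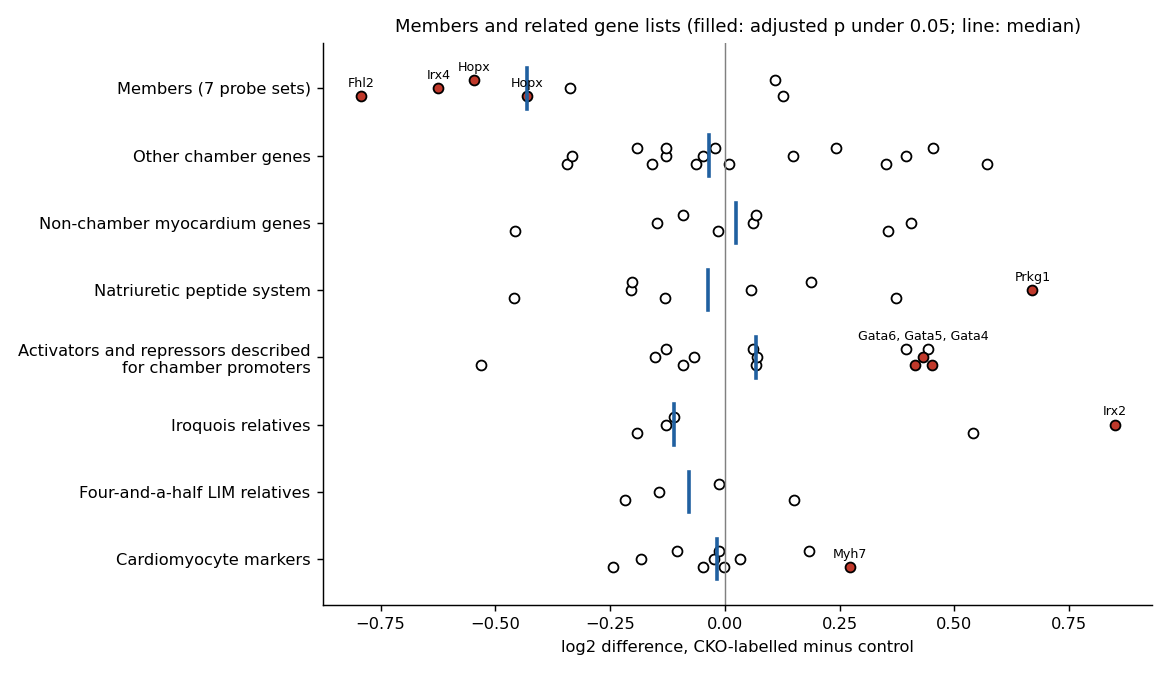
Log2 differences between CKO-labelled and control hearts for the 7 probe sets of the members and for related gene lists, 1 point per probe set or gene, filled where called, with the list median as a line. The median of the members is -0.43, and the medians of the other lists lie between -0.11 and 0.07. Members and lists were chosen with earlier results of these data known.

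Markers of other cells in the dissected region differed between the groups in part, and their part in the members' values was not tested. The 5 proepicardial and mesothelial markers summed to 303.7 to 803.3 intensity units on CKO-labelled arrays, 461.8 to 707.0 on double heterozygous arrays and 930.5 to 1048 on control arrays. The 7 endothelial and endocardial markers summed to 2222 to 2616 on CKO-labelled arrays, 1946 to 2011 on double heterozygous arrays and 1947 to 2051 on control arrays. The 3 second heart field markers summed to 268.9 to 399.5 on CKO-labelled arrays, 207.0 to 233.4 on double heterozygous arrays and 125.5 to 151.2 on control arrays. Between CKO-labelled and control hearts 2 of the 5 proepicardial and mesothelial markers were called lower (Tcf21 at -1.31 and Lrrn4 at -1.20). Of the 5, 4 had lower means and 1, Wt1, a higher mean (0.23, not called). Against double heterozygous hearts Wt1 was at 0.64, not called, with all CKO-labelled arrays above all double heterozygous arrays. Of the endothelial markers 2 of 7 were called higher (Cdh5 at 0.63 and Kdr at 0.68) and 1 lower (Tek at -0.65), and of the second heart field markers 1 of 3 was called higher (Isl1 at 1.38). The other second heart field markers, Fgf8 at 0.52 and Fgf10 at -0.11, were not called. The 5 measured erythroid markers, 16244 to 22585 on CKO-labelled, 17117 to 21320 on double heterozygous and 16984 to 20954 on control arrays, had 0 called. Of 4 foregut and epithelial markers 1 was called higher (Krt8 at 0.71), with sums of 1078 to 1468 on CKO-labelled, 783.0 to 1001 on double heterozygous and 718.9 to 799.5 on control arrays. Epcam at 0.04, Cdh1 at 0.14 and Foxa2 at 0.06 were not called. Sums of intensity follow the brightest markers, so they do not show that a list moved together. Of 4 neural and neural crest markers 0 were called, with sums of 160.8 to 643.7 on CKO-labelled, 130.6 to 217.6 on double heterozygous and 166.4 to 175.7 on control arrays. Of these markers 0 read 0 on all arrays of a group, and the foregut markers Epcam and Foxa2 averaged under 16 intensity units in every group. Fgf10 averaged under 16 units on CKO-labelled arrays, Fgf8 on control arrays, and the neural marker Pax6 on CKO-labelled and control arrays. Among the cardiomyocyte markers 1 of 10, Myh7, was called (0.27, adjusted p = 0.0154, limma), and their median difference was -0.02.

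The genes whose values most resembled each member over the 11 arrays were found among 6206 genes with a mean log2 value over 7, by Pearson correlation. These arrays hold 3 genotypes, so the correlation carries the genotype differences, and the value with group means removed is given after it. Fhl2 was most like C1qbp (0.977, and 0.934 within groups), Mlip, which encodes a lamin-interacting protein of muscle (0.975 and 0.805), and Ube2e3 (0.974 and 0.809). Mlip was also lower in CKO-labelled than control hearts (-1.81, adjusted p = 0.000124, limma). Also called lower there were C1qbp (-0.32) and, of the genes named next, Ndrg4 (-0.56), Tmem242 (-0.43), Acaa2 (-0.70) and Col2a1 (-0.83). Because likeness carries the genotype differences, these falls follow in part from the choice and are no further result. Hopx was most like Ndrg4, a gene of heart muscle and nerve (0.982 and 0.908), Tmem242 (0.953 and 0.772) and Acaa2, a thiolase of fatty acid oxidation (0.930 and 0.572). Irx4 was most like Unc119 (0.972 and 0.888), Mcrs1 (0.972 and 0.962) and Col2a1, a collagen chain (0.970 and 0.936). Smpx was most like Qdpr (0.921 and 0.837), Phactr2 (0.916 and 0.815) and Idh3b, a citric acid cycle subunit (0.914 and 0.843). Nppa was most like Zadh2 (0.919 and 0.892), Mindy2 (0.916 and 0.795) and Inafm2 (0.901 and 0.760). Nppb was most like Nadk2 (0.874 and 0.829), Adipor1 (0.838 and 0.780) and Zfp931 (0.837 and 0.736). The members themselves and clone-named genes were left out of that search.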

How the data were processed

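RNA of pooled hearts was hybridised to 11 one-colour arrays. Per the labels' protocols it was extracted with TRIzol, and 50 ng was amplified and labelled with an Ovation kit. The deposited table holds linear intensity values, 1 per probe set and array, made by the authors with PLIER per the submitters' processing notes. For background correction and scaling, the method was not given in the sources used here. The log2(value + 16) of each deposited intensity was taken, which understates changes of dim genes. Array medians spanned 0.465, so the arrays were quantile normalised after 64 control probe sets were removed. A model with 1 coefficient per genotype was fitted to all 45037 probe sets and 11 arrays (limma 3.58.1, R 4.3.3, intensity trend, 8 residual degrees of freedom), with 3 two-sided contrasts and an F-test. The fit was tested on simulated data with independent noise and no array effects, so that test does not cover differences in quality between arrays. Figures were drawn with matplotlib 3.10.9. The number of arrays limits the precision.

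Symbols came from the platform annotation, in which 34945 tested probe sets had 1 symbol, 932 several and 9160 none. A gene was represented by its brightest probe set, passing over _x_at and _s_at ones where another existed. Named were all members, the 3 genes most like each member, Gata4 and Nkx2-5, every called gene of a pathway list, or the 2 with the smallest p where a list had none. Irx3, Irx5, Tbx5, Tbx20, Tbx2, Tbx3 and Myl2 stand in more than 1 list. The members and the lists were chosen with earlier results of these data known. Same-numbered arrays of different groups had deviations from their group means that correlated at -0.06 to 0.15, so the numbers were not taken to pair arrays. No 2 arrays shared more than 0.829% identical values.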

Additional observations from a re-analysis of the deposited data

How the results depend on the processing

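Over 22 alternatives (21 for the second Hopx probe set) the lower signal of Fhl2, Irx4, Hopx and Smpx in CKO-labelled against control hearts kept its direction, and Fhl2 was called in all of them, at -0.95 to -0.69. Some of these alternatives change only the p-value of that difference, so its direction could not turn. They were no intensity trend, a mean log2 over 6, only the groups compared, and each double heterozygous array left out. Of the 7 probe sets 4 were called in that comparison. There were 2 on the deposited scale, 1 without the intensity trend, 2 with the replicate block (which ended the Irx4 call, at -0.51), 2 with only the groups compared in the fit, and 1 to 5 with single arrays left out. There were 5 with a mean log2 over 6, 5 with array weights, 3 with median centring and 4 without CKO-labelled replicates 2 and 3 together. Against double heterozygous hearts 0 were called, against 1 with a mean log2 over 6, 3 with array weights (Nppa, Irx4 and Fhl2), 1 with probe sets averaged per gene, 2 without CKO-labelled replicates 2 and 3 together, and 0 to 1 with single arrays left out. In the F-test 3 were called, against 1 on the deposited scale, 1 without the intensity trend, 6 with array weights, 0 with the replicate block, 0 with the ordinary F-test that the series description names, and 1 to 4 with single arrays left out. For the F-test and the comparison with double heterozygous hearts, calls over all probe sets are given here for the main fit only. Calls over the whole table moved strongly between settings against control, as given below. Counts of called members in the alternatives are therefore no result about the members. The cause of these moves was not tested. Between double heterozygous and control hearts 0 of the 7 were called in each of the 22 alternatives. The values that changed sign were Nppa on the deposited scale (-0.0052) and after median centring (-0.014), Nppb on these (-0.049 and -0.057), all in CKO-labelled against control hearts, and Smpx in CKO-labelled against double heterozygous hearts without double heterozygous replicate 2 (0.033), where leaving out single arrays gave -0.14 to 0.03. In the whole table the comparison of CKO-labelled with control hearts had 632 calls. It had 92 on the deposited scale, 362 with median centring, 281 without the intensity trend and 265 with the replicate block. With only the groups compared it had 263, among probe sets with a mean log2 over 6 it had 1002, and with array weights 2393. Each member except Hopx rests on 1 probe set, and without detection calls no dim level could be called absent.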

Other observations

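How the members varied together within a genotype was described after group means were removed, over 11 arrays that share labelling and scaling, by Pearson correlation and with no test. The brighter Hopx probe set and Fhl2 varied together most (0.772), followed by Irx4 and the dimmer Hopx probe set (0.604) and by the brighter Hopx probe set and Smpx (0.598). The 2 Hopx probe sets correlated at 0.422. Nppa and Nppb, neighbours in the genome, correlated at -0.07 within groups and 0.428 with the group means kept. Nppb and Irx4 correlated at -0.439 within groups, and Nppa and Smpx at 0.516. Over 11 arrays such values are loose, and how often other gene pairs reach them was not counted.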
